A study of Mus musculus with 13 samples.

Results

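The 9 genes described here encode the enzymes that commit carbon to glucose synthesis in the liver and the proteins that release the product: Pck1, Pck2, Pcx, Fbp1, Mdh1, G6pc, G6pc3, Slc37a4 and Slc2a2. They were chosen by name, and each was read from the array probe set annotated with that 1 gene symbol. All 9 were measured, each by 1 probe set, among the 19938 named genes on the array. Livers of male C57BL/6N wildtype mice were compared, 6 from mice given streptozotocin (STZ), a glucose analogue toxic to pancreatic beta cells, which make insulin, and a common model of insulin-deficient diabetes, and 7 from controls mock-injected with citrate buffer. STZ was given into the peritoneum at 65 mg/kg on 5 consecutive days, at an age of 10 to 16 weeks. Livers were taken 9 to 11 weeks later, at 5 to 6 months. The treatment is systemic, and blood glucose and insulin were not analysed here, so the degree of diabetes of each mouse is unknown in these data. The series design text describes the controls by a standard diet and the sample labels by the mock injection, and the labels were followed.

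Gluconeogenesis makes glucose from lactate, alanine and glycerol. Pyruvate carboxylase turns pyruvate into oxaloacetate inside mitochondria, malate dehydrogenases carry it to the cytosol as malate, and phosphoenolpyruvate carboxykinase converts it to phosphoenolpyruvate. Fructose-1,6-bisphosphatase and glucose-6-phosphatase remove the phosphates later in the pathway, and the glucose leaves the hepatocyte. In the fed state insulin represses transcription of Pck1 and G6pc, while glucagon, through cyclic AMP, and glucocorticoids raise it.

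In STZ livers 2 of the 9 genes rose and none fell at an adjusted p under 0.05 in limma, a linear model fitted to all 19938 genes. The background was 9.12% of all named genes passing, 5.09% as higher and 4.04% as lower. All 9 genes were brighter than the median gene. With only genes brighter than the median tested, 1857 passed, so the share among them was higher than 9.12%. The count of 2 in 9 is given as a description. The genes that rose were Pck1, by 1.50-fold, and G6pc3, a widely expressed glucose-6-phosphatase, by 1.25-fold. G6pc, the glucose-6-phosphatase of liver and kidney, had the opposite sign, at 0.772 of the control level, and did not pass (adjusted p = 0.103 in limma). The median difference of the 9 genes was 0.06 on the log2 scale, against -0.01 over all named genes. For none of the 9 genes were the 7 controls and the 6 STZ livers fully separated, while 3.86% of all named genes were.

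All values are log2 intensities, so that a difference of 1 is a doubling, and differences are STZ minus control with the standard error (SE) of the fit. A level cannot be compared between genes, because probe sets differ in brightness. Values across all probe sets ran from 2.70 to 14.14. Fbp1 (13.32 in controls), G6pc (12.82) and Pck1 (12.13) were near the bright end, where arrays can compress differences. The labels call the mice of a group biological replicates and give no batch. Of 9 measured hepatocyte marker genes, 1 was higher, Cps1 (0.16 ± 0.04, SE), and 2 lower, Apoa1 (-0.23 ± 0.06, SE) and Ttr (-0.18 ± 0.05, SE), in STZ livers. The share passing over all named genes was 9.12%. Only 1 of the 9 markers passed when control replicate 4, 5 or 7 or STZ replicate 1 or 4 was left out, and 0 with the replicate number as a block in limma. Leaving out 1 liver ended the call of Ttr in 11 of 13 fits and that of Cps1 in 5. The mean level of the 9 markers per liver was 12.85 to 12.90 in controls and 12.84 to 12.88 in STZ livers. Several of these markers were also near the bright end, among them Alb (13.67 in controls), Apoa1 (13.51) and Ttr (13.48). A mean that hardly moved therefore does not show an unchanged share of hepatocytes. In bulk tissue, a change in the number of cells of a type and in the RNA per cell cannot be told apart.

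The promoters of Pck1 and G6pc are shown because both carry known elements for hormonal control. Their differences had opposite signs, and that of G6pc did not pass. Each is the stretch of 250 bases before the gene's start, on the plus strand of GRCm38.p6 in RefSeq, at chr2:173152823-173153072 for Pck1 and chr11:101367466-101367715 for G6pc. Capitals mark matches to the core of the cyclic AMP response element, ACGTCA, or of the insulin response sequence bound by FOXO factors, TGTTTTG.
Pck1: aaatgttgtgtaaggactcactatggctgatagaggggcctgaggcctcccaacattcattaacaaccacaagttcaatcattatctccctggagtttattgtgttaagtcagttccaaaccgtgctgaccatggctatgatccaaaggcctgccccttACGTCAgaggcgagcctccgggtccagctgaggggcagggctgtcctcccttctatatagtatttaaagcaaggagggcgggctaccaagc
G6pc: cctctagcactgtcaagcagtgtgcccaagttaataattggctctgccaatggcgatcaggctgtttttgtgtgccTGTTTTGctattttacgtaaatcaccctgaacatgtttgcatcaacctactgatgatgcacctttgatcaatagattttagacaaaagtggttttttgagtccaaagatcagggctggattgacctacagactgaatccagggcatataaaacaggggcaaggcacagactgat
The motifs searched, on both strands, were these and 2 others, the forkhead core TGTTTAC and the glucocorticoid half-site AGAACA. No matches overlapped. Pck1 held ACGTCA from -91 to -86 before its start, and G6pc held TGTTTTG from -174 to -168. Among 32851 such mouse windows, 6.47% held ACGTCA, 5.56% TGTTTTG, 3.17% TGTTTAC and 16.1% AGAACA. Windows were found for all 9 genes. Slc37a4 also held the cyclic AMP core, Pck2 the insulin response core and G6pc3 the glucocorticoid half-site, while no match was found in the windows of Fbp1, Pcx, Slc2a2 and Mdh1. A match to these letters describes the sequence and does not show that a factor binds there. Only exact letters within 250 bases were searched. Elements with other letters or farther from the start would be missed, so a motif not marked in a promoter is not shown to be absent.

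Pck1, the cytosolic phosphoenolpyruvate carboxykinase and the classic hormone-regulated step of the pathway, was the member with the largest difference. Its log2 values in control replicates 1 to 7 were 12.28, 12.10, 11.99, 11.86, 11.91, 12.43 and 12.32. In STZ replicates 1 to 6 they were 12.80, 12.87, 12.62, 12.88, 12.36 and 12.77. All 6 STZ livers lay above the control mean and 5 of them above every control, the exception being STZ replicate 5. The mean went from 12.13 ± 0.22 (SD, n = 7) to 12.72 ± 0.20 (SD, n = 6), a difference of 0.59 ± 0.10 (SE, adjusted p = 0.00151 in limma). The 95% interval of the fold was 1.29 to 1.75. Pck1 passed in each of the 13 fits that left out 1 liver, with differences of 0.55 to 0.66, and the difference was 0.66 without STZ replicate 5.

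Pck2 encodes the mitochondrial form of the same enzyme, which is less responsive to hormones. Its values were 7.21, 7.20, 7.17, 7.17, 7.22, 7.13 and 7.23 in control replicates 1 to 7. They were 7.26, 7.38, 7.12, 7.20, 6.98 and 7.15 in STZ replicates 1 to 6. The STZ livers surrounded the controls, with 2 above all of them and 2 below. The difference was -0.01 ± 0.06 (SE, adjusted p = 0.963 in limma), and its 95% interval, -0.13 to 0.11, corresponds to folds of 0.913 to 1.08. The spread between STZ livers was 0.14 (SD, n = 6) against 0.04 (SD, n = 7) in controls.

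**Figure D1:**
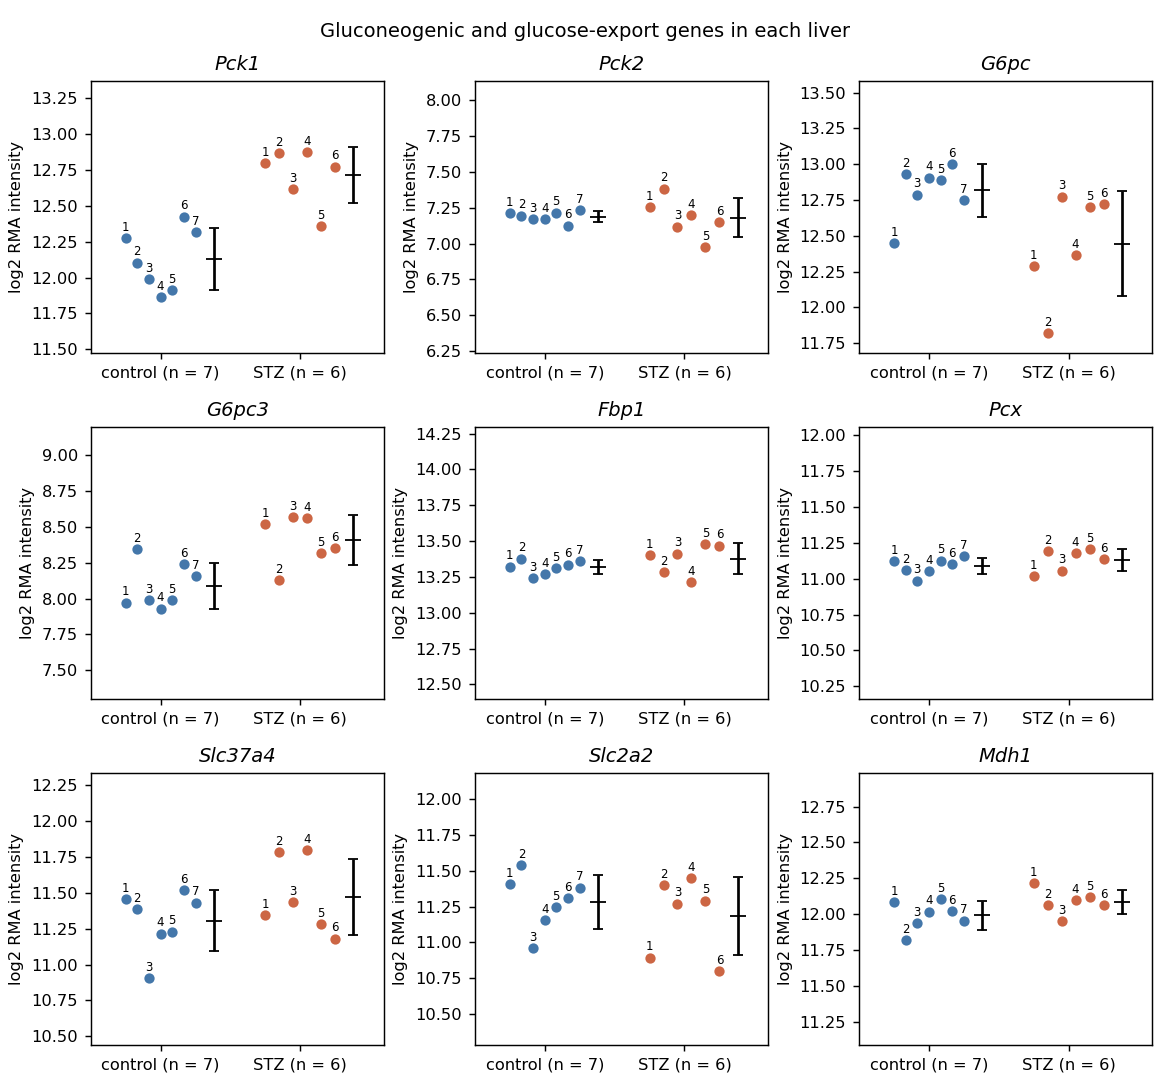
Log2 intensity of the 9 genes in every liver. Each point is 1 liver with its replicate number (blue, 7 controls; orange, 6 STZ), black bars are mean ± SD, and every panel spans the same log2 range around its own centre. Pck1 and G6pc3 sit higher in STZ livers, G6pc spreads downward in STZ livers, and Fbp1, Pcx and Mdh1 vary within narrow ranges.

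Pcx encodes pyruvate carboxylase, which starts gluconeogenesis from pyruvate. It ranged from 10.99 to 11.16 with a median of 11.10 in controls and from 11.02 to 11.21 with a median of 11.16 in STZ livers. The groups overlapped for all but 3 STZ livers, which lay above every control. The difference was 0.05 ± 0.05 (SE, adjusted p = 0.688 in limma), with a 95% interval of the fold from 0.960 to 1.11. Mdh1, the cytosolic malate dehydrogenase that regenerates oxaloacetate and NADH in the cytosol, ranged from 11.82 to 12.10 in controls (median 12.02) and from 11.95 to 12.22 in STZ livers (median 12.08). Of the 6 STZ livers, 5 lay above the control mean and 2 above every control. The Mdh1 difference of 0.09 ± 0.06 (SE) did not pass (adjusted p = 0.398 in limma; 95% interval of the fold 0.981 to 1.16).

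Fbp1, fructose-1,6-bisphosphatase, removes a phosphate from fructose-1,6-bisphosphate and opposes phosphofructokinase. Its values ran from 13.24 to 13.38 in controls (median 13.32) and from 13.21 to 13.48 in STZ livers (median 13.41). The STZ livers spread wider, with 4 above every control and STZ replicate 4 below every control. The difference of 0.06 ± 0.05 (SE) did not pass (adjusted p = 0.600 in limma), and the 95% interval of the fold was 0.965 to 1.13. For each of the 9 genes other than Pck1, the upper end of the interval lay below 1.50, the fold estimate for Pck1. The interval of Pck1 itself began at 1.29. Bright probe sets such as that of Fbp1 can compress folds, so this comparison does not rank the changes.

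G6pc encodes the catalytic subunit of glucose-6-phosphatase, which releases free glucose in the endoplasmic reticulum. Its values in control replicates 1 to 7 were 12.45, 12.93, 12.79, 12.91, 12.89, 13.002 and 12.75. In STZ replicates 1 to 6 they were 12.29, 11.82, 12.77, 12.36, 12.70 and 12.72. All 6 STZ livers lay below the control mean, but only replicates 1, 2 and 4 lay below every control, and control replicate 1 was itself low. The mean was 12.82 ± 0.18 (SD, n = 7) in controls and 12.44 ± 0.37 (SD, n = 6) in STZ livers. The difference of -0.37 ± 0.13 (SE) had an unadjusted p of 0.0133 in limma and an adjusted p of 0.103, and its 95% interval ran from -0.66 to -0.09. Without STZ replicate 2, the lowest liver, the difference was -0.25 (adjusted p = 0.176 in limma, and 0.0551 to 0.197 over the 13 fits that each left out 1 liver). With only the 4 STZ livers whose label numbers are 29 to 32, which leaves out replicates 5 and 6, it was -0.51 and passed (adjusted p = 0.0332 in limma).

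G6pc3 encodes a glucose-6-phosphatase found in most tissues, known for its role in neutrophils. Its values in control replicates 1 to 7 were 7.97, 8.34, 7.99, 7.93, 7.99, 8.24 and 8.16. In STZ replicates 1 to 6 they were 8.52, 8.13, 8.57, 8.56, 8.32 and 8.36. All 6 STZ livers lay above the control mean and 4 above every control, while STZ replicates 2 and 5 lay within the control range. The mean went from 8.09 ± 0.16 (SD, n = 7) to 8.41 ± 0.17 (SD, n = 6), a difference of 0.32 ± 0.08 (SE, adjusted p = 0.0250 in limma). The call was lost when control replicate 1, 4 or 5 or STZ replicate 1, 3 or 4 was left out (6 of 13 fits), where the difference was 0.29 to 0.30 and the adjusted p at most 0.0650. It was also lost in the exact rank-sum test (adjusted p = 0.122), which at these group sizes passes only genes whose groups hardly overlap.

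Markers of other cell types were read in the same fit. Of 10 macrophage markers 4 were higher in STZ livers and none lower, Cd5l (0.62 ± 0.15, SE), Cd68 (0.47 ± 0.13, SE), Vsig4 (0.41 ± 0.11, SE) and Clec4f (0.31 ± 0.08, SE). For this and the other cell type lists, the share passing over all named genes was 9.12%. The macrophage count was not stable. It was 7 without control replicate 3 or STZ replicate 3, 2 without control replicate 7 or STZ replicate 1 or 4, 1 without STZ replicate 6, and 0 both in the exact rank-sum test and with the replicate block. Their mean level per liver was 8.36 to 8.83 in controls and 8.54 to 9.19 in STZ livers. Of 8 lymphocyte markers 1 was higher, Ptprc, the common leukocyte antigen (0.31 ± 0.09, SE), a call lost in 9 of 13 fits without 1 liver (control replicates 1, 2, 4, 5 and 7 and STZ replicates 1, 2, 4 and 6), and the mean level was 5.53 to 5.74 in controls and 5.43 to 5.95 in STZ livers. The part of these cells in the G6pc3 difference was not tested. Of 10 stellate cell markers 3 were higher and 1 lower, and of 10 endothelial markers 1 was higher, and none in the exact rank-sum test. No marker of bile duct (7 measured), kidney cortex (9) or exocrine pancreas (7) passed in limma with all 13 livers, or in the exact rank-sum test, and before adjustment the limma p of 2, 0 and 0 of them was under 0.05. Of the bile duct markers 1 passed without control replicate 1 or STZ replicate 3 and with the replicate block, and 2 without control replicate 4. Epcam passed in those 3 fits without 1 liver (adjusted p = 0.0206 to 0.0447 in limma). In these last lists the genes with the smallest p were Epcam (0.26 ± 0.08, SE), Slc5a2 (-0.17 ± 0.08, SE) and Prss2 (-0.13 ± 0.07, SE).

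Slc37a4 encodes the carrier that brings glucose-6-phosphate into the endoplasmic reticulum, where G6pc acts on it. Its values in control replicates 1 to 7 were 11.46, 11.39, 10.91, 11.22, 11.23, 11.52 and 11.43. In STZ replicates 1 to 6 they were 11.35, 11.79, 11.44, 11.80, 11.28 and 11.18. STZ replicates 2 and 4 stood above every control and the other 4 within the control range. The difference was 0.16 ± 0.11 (SE, adjusted p = 0.475 in limma), with a 95% interval from -0.08 to 0.41. Slc2a2 encodes GLUT2, the main glucose transporter of the hepatocyte membrane. It ranged from 10.96 to 11.54 in controls (median 11.31) and from 10.80 to 11.45 in STZ livers (median 11.28), and STZ replicates 1 and 6 lay below every control. The Slc2a2 difference was -0.10 ± 0.11 (SE, adjusted p = 0.699 in limma; 95% interval -0.34 to 0.14).

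**Figure D2:**
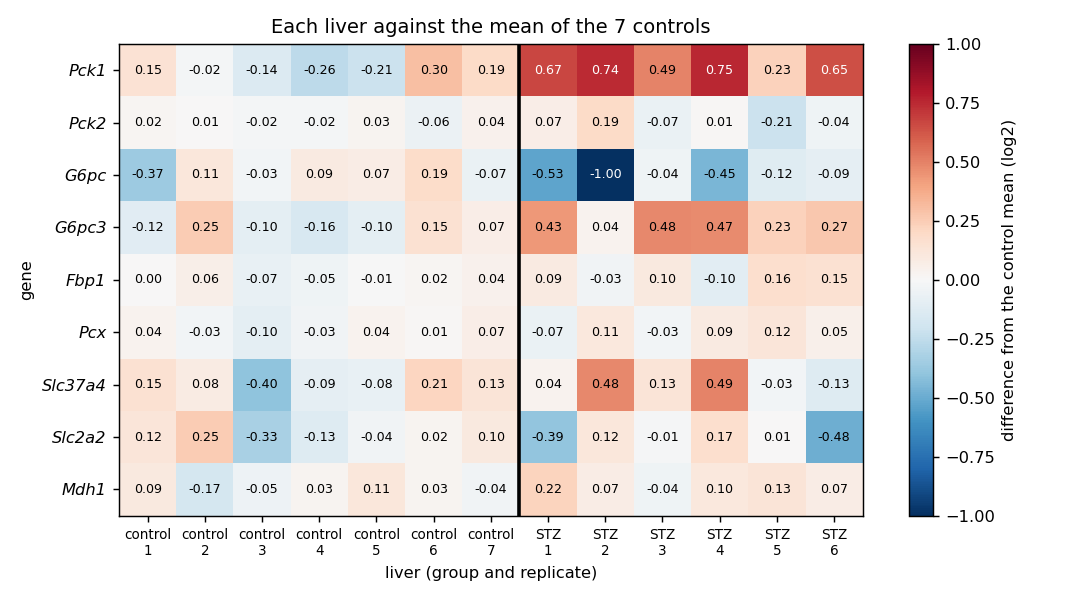
Difference of each liver from the mean of the 7 controls, on the log2 scale, for the 9 genes (rows) in 7 control and 6 STZ livers (columns). Red is higher and blue lower than the control mean; the Pck1 row is red in all 6 STZ livers, and the darkest blue cell is G6pc in STZ replicate 2.

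Whether genes of neighbouring roles changed unequally was tested on the difference between both genes within each liver, which compares changes and not levels. An exact 2-sided permutation test over all splits of the 13 livers into groups of 7 and 6 was used for 4 pairs, with adjustment over the 4. The pairs were chosen with earlier values of Pck1 and G6pc known, so these tests are not independent of that knowledge. Pck1 minus G6pc went from -0.69 ± 0.31 (SD, n = 7) to 0.27 ± 0.51 (SD, n = 6), a shift of 0.96 (exact p = 0.00175, adjusted p = 0.00233). The highest control was -0.18 and the lowest STZ liver -0.34, so the groups overlapped. Pck1 minus Pck2 shifted by 0.60 (exact p = 0.00117, adjusted p = 0.00233), with controls from 4.70 to 5.30 and STZ livers from 5.38 to 5.68. The log2 intensities of the cytosolic and the mitochondrial isoenzyme shifted unequally, with no overlap between the groups. Their probe sets differ in brightness, and the Pck2 difference was -0.01, so this shift mostly repeats that of Pck1. G6pc minus G6pc3 fell by 0.69 (exact p = 0.000583, the smallest these splits can give; adjusted p = 0.00233), from 4.73 ± 0.18 (SD, n = 7) to 4.03 ± 0.32 (SD, n = 6), also with no overlap. G6pc minus its substrate carrier Slc37a4 fell by 0.54 (exact p and adjusted p = 0.0495). The last call was lost in 9 of the 13 tests that left out 1 liver (control replicates 2 to 7 and STZ replicates 1, 2 and 4), with a shift of -0.35 without STZ replicate 2. The other 3 pairs passed in all 13.

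**Figure D3:**
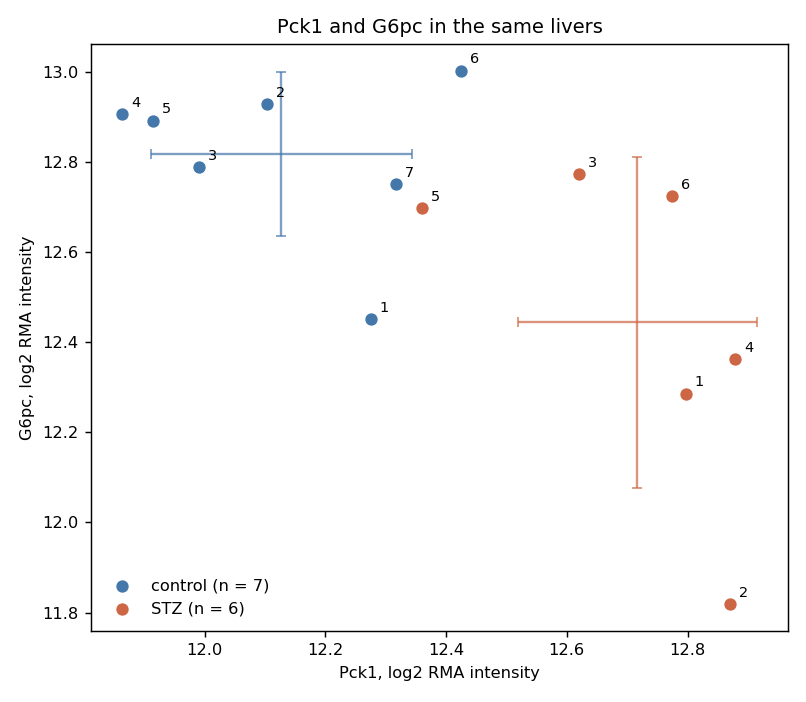
G6pc against Pck1, both as log2 intensity, in the same livers (blue, 7 controls; orange, 6 STZ). Numbers are replicates and crosses give mean ± SD of each group. STZ livers lie to the right, STZ replicate 5 sits beside the controls, and STZ replicate 2 has the lowest G6pc of all.

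Within a group, the 9 genes showed no correlation that passed. Pearson and Spearman coefficients were computed for 36 gene pairs in each group, 72 in all, with exact permutation p values. The smallest adjusted p was 0.0857 for Pearson and 0.571 for Spearman, and 9 of 72 Pearson coefficients had an unadjusted p under 0.05. In STZ livers Pck1 and G6pc had a Pearson r of -0.63 (exact p = 0.178, adjusted p = 0.591) and a Spearman rho of -0.66 (exact p = 0.175, adjusted p = 0.700; n = 6). Without the 2 livers farthest from the Pck1 median r was -0.68. In controls r was -0.21 (exact p = 0.711, adjusted p = 0.981), rho was 0 (exact p = 1, adjusted p = 1; n = 7) and r without 2 livers -0.63.

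Over all 13 livers, after each group's mean was taken out, the genes whose pattern was most like that of Pck1 were Ttll13 (r = 0.921), Slc7a2 (r = 0.921) and Rhbdd2 (r = 0.900). Slc7a2, a carrier of cationic amino acids, was itself higher in STZ livers by 0.49 ± 0.09 (SE, adjusted p = 0.00273 in limma). The genes most like G6pc3 were Elob (r = 0.949), Commd9 (r = 0.928) and Bysl (r = 0.924), none of which passed with all 13 livers and all genes. Elob (0.21 ± 0.07, SE, adjusted p = 0.0741 in limma) passed without control replicate 2 (adjusted p = 0.0212), without STZ replicate 2 (0.0400) and among brighter genes only (0.0464). These are the highest of 19937 coefficients each and are given as a description.

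Of 8 listed enzymes of the reversible steps, most of them shared with glycolysis, 4 were measured and the others were not analysed here. Of these 4, 2 passed as higher, the triosephosphate isomerase Tpi1 (0.20 ± 0.05, SE) and the mitochondrial malate dehydrogenase Mdh2 (0.29 ± 0.06, SE). The background over all named genes was 9.12%, and it was higher among brighter genes, to which both belong. With the replicate block 1 passed. Their list median was 0.18. Among 20 measured genes that bring substrates into the pathway, 4 were higher and 2 lower, with a median of 0.09. The cytosolic aspartate aminotransferase Got1 (0.58 ± 0.08, SE), the alanine aminotransferase Gpt (0.38 ± 0.08, SE), the mitochondrial aspartate-glutamate carrier Slc25a12 (0.43 ± 0.09, SE) and the monocarboxylate transporter Slc16a7 (0.60 ± 0.15, SE) were higher. The glycerol-3-phosphate dehydrogenases, through which glycerol carbon enters, were lower, the mitochondrial Gpd2 by -0.71 ± 0.15 (SE) and the cytosolic Gpd1 by -0.48 ± 0.11 (SE).

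Of 12 measured enzymes and regulators of the opposing glycolytic steps (glucokinase was not analysed here), 1 was higher and 1 lower, with a median of 0.02. The share passing over all named genes was 9.12%. Liver pyruvate kinase Pklr, which consumes the phosphoenolpyruvate that Pck1 makes, was lower (-1.20 ± 0.23, SE, adjusted p = 0.00338 in limma). The glucokinase regulatory protein gene Gckr was higher (0.27 ± 0.06, SE, adjusted p = 0.0138 in limma). Pklr did not pass in the exact rank-sum test (adjusted p = 0.0628).

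**Figure D4:**
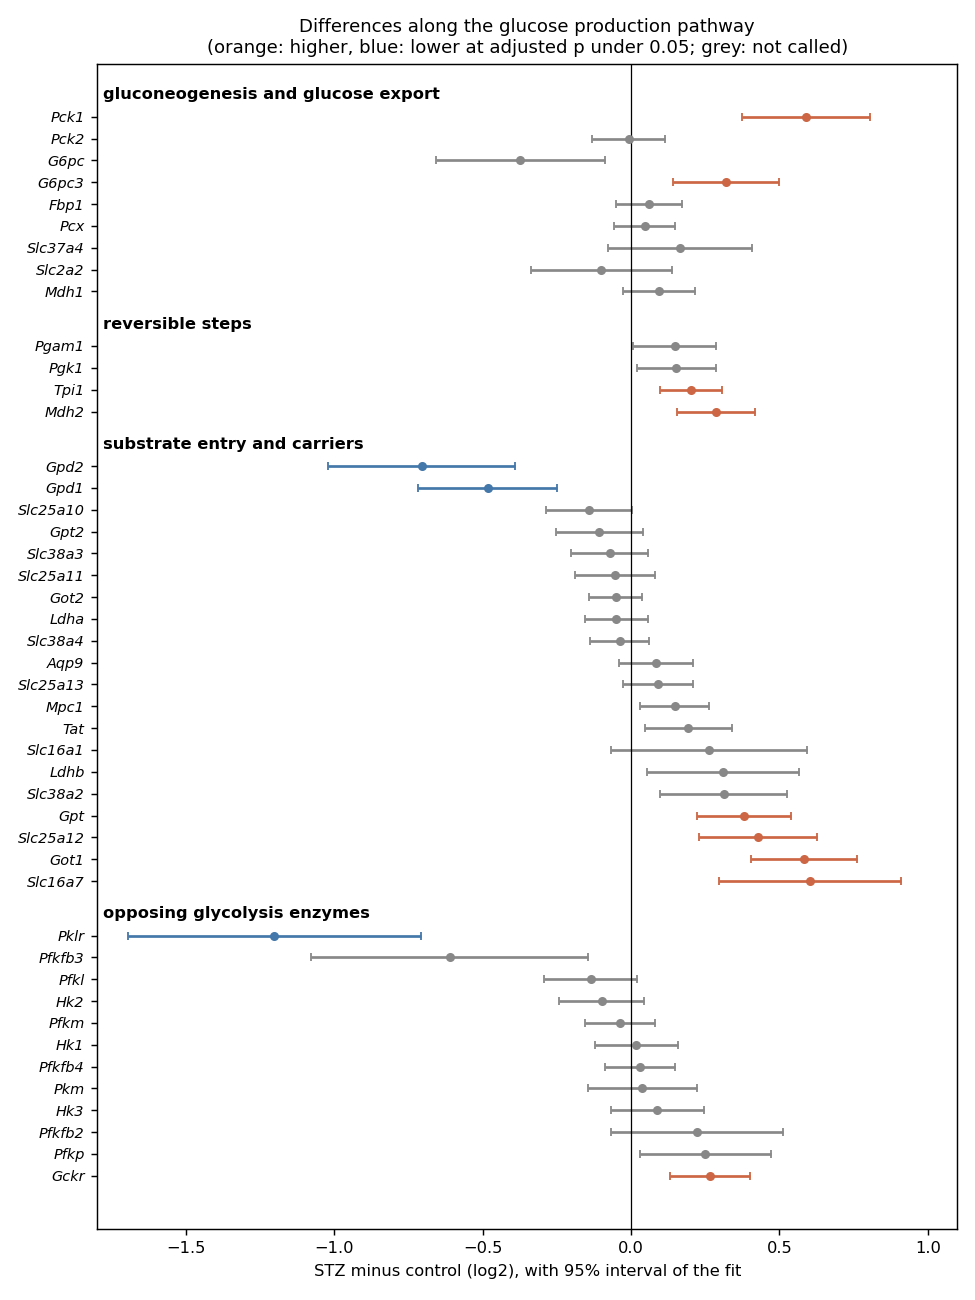
STZ minus control difference on the log2 scale with its 95% interval for the 9 genes and for every measured gene of the reversible steps (4), substrate entry and carriers (20) and opposing glycolysis enzymes (12). Orange genes were higher and blue genes lower at an adjusted p under 0.05, and grey genes did not pass; among the 9, Pck1 and G6pc3 are orange.

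Among 19 paralogs of the 9 genes, or genes of the same enzyme class, 3 were higher and 2 lower, with a median of 0.06. Over all named genes 9.12% passed. Of the 3, Mdh2 was also counted among the reversible steps. The glucose transporter gene Slc2a1, which encodes GLUT1, was higher by 0.45 ± 0.08 (SE, adjusted p = 0.00177 in limma), with all STZ livers above all controls, while Slc2a2 was -0.10. Whether these transporters differed from each other was not tested. Slc37a1, a relative of Slc37a4, was also higher (0.56 ± 0.12, SE), and the carboxylases of fatty acid synthesis, Acacb (-1.37 ± 0.23, SE) and Acaca (-0.59 ± 0.15, SE), were lower while Pcx was 0.05.

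Of 28 measured regulators of the pathway, 6 were higher and 4 lower, with a median of 0.00371, while 9.12% of all named genes passed. The higher ones were the kinase Sik1, which restrains CREB-regulated transcription (0.95 ± 0.19, SE), the coactivator Ppargc1a (0.91 ± 0.17, SE), Stat3 (0.64 ± 0.11, SE), Nr4a1 (0.47 ± 0.13, SE), Trib3 (0.41 ± 0.09, SE) and Crem (0.36 ± 0.06, SE). The lower ones were the nuclear receptor Ppara (-0.79 ± 0.09, SE), Cebpa (-0.58 ± 0.11, SE), the glucagon receptor gene Gcgr (-0.25 ± 0.06, SE) and the glucocorticoid receptor gene Nr3c1 (-0.23 ± 0.06, SE). Foxo1 (-0.005 ± 0.13, SE) did not pass. Igfbp1, a target that insulin represses, was 7.08 to 8.81 in controls and 8.95 to 11.22 in STZ livers, with no overlap, a difference of 2.51 ± 0.34 (SE). STZ replicate 5 had the lowest Igfbp1 of the STZ livers, as it had the lowest Pck1 and Ppargc1a (8.59 against 8.74 to 9.69 in the other 5). Among the other 7 index genes of insulin action Irs2 (0.66 ± 0.11, SE) and Irs1 (0.50 ± 0.10, SE) were higher and Fasn (-1.30 ± 0.24, SE) and Srebf1 (-0.71 ± 0.15, SE) lower. Insr (0.09 ± 0.07, SE), Pdk4 (0.22 ± 0.34, SE) and Akt2 (-0.15 ± 0.05, SE) did not pass in limma.

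Gluconeogenesis is a function of the hepatocytes around the portal vein, so markers of liver zones were read beside the 9 genes. Of 12 measured periportal markers 7 were higher and none lower, among them Hsd17b6 (0.92 ± 0.12, SE), Etnppl (0.90 ± 0.12, SE), Ctsc (0.84 ± 0.09, SE) and Hal (0.51 ± 0.07, SE). Their mean level per liver was 11.50 to 11.70 in controls and 11.85 to 12.11 in STZ livers. Of 14 pericentral markers 5 were higher and 1 lower. The higher ones were Slc13a3 (0.73 ± 0.14, SE), Lhpp (0.61 ± 0.10, SE), Oat (0.52 ± 0.08, SE), Axin2 (0.36 ± 0.08, SE) and Slc1a2 (0.25 ± 0.06, SE), and the lower one was Cyp27a1 (-0.29 ± 0.08, SE). The others did not pass, among them Glul (-0.18 ± 0.09, SE) and Cyp2e1 (-0.06 ± 0.04, SE). The mean level of the 14 per liver was 10.50 to 10.65 in controls and 10.52 to 10.92 in STZ livers. Over all named genes 9.12% passed, and a larger share of the brighter ones. The part of zonal composition in the Pck1 difference was not tested.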

How the data were processed

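Liver RNA of 7 control and 6 STZ mice was measured on Affymetrix mouse gene arrays, 1 per mouse. The authors deposited log2 intensities. Per the submitters' processing notes, these came from RMA (robust multi-array average) as run by Affymetrix Expression Console 1.2, which corrects background, brings arrays to a common distribution and summarises probes, so an overall change in RNA amount is not visible. Annotation version and genome build: not given in the sources used here. The number of arrays limits precision.

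Of 35556 probe sets, 21789 had 1 gene symbol in the platform annotation, 1621 had several and 12146 were not named. The brightest probe set of each gene was kept (19938 genes), with no filter. Groups came from the sample titles. Differences were tested in limma 3.58.1 (lmFit, eBayes, 2-sided; R 4.3.3), with Benjamini-Hochberg adjustment over all 19938 genes and a threshold of 0.05. On simulated arrays with 100 genes changed per size, 91% were recovered at 0.5 and 98% at 1 log2 unit. Permutation tests were exact.

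Genes named by rule were the 9 genes, up to 4 passing genes with the largest difference per list (or the smallest p where none passed), 8 insulin index genes, and 3 genes most correlated with each of the genes that passed. Some further genes of the lists were named beside them. The genes and lists were chosen with earlier results of these data known. Alternatives were leaving out each liver, STZ label numbers 29 to 32 only, median centring, trend and robust variance, brighter genes only, other probe set choices, an exact rank-sum test and the title replicate number as a block. For genes not named by rule, such as Gpt, Slc25a12, Cebpa and Gcgr, calls in the alternatives are not given here.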

Additional observations from a re-analysis of the deposited data

How the results depend on the processing

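The call of Pck1 and the direction of G6pc, G6pc3, Fbp1, Pcx, Slc37a4, Slc2a2 and Mdh1 held in all 21 alternatives. The G6pc3 call did not hold in the exact rank-sum test (0.32, adjusted p = 0.122) or with the replicate block (0.33, adjusted p = 0.102), and without 1 liver its difference ranged from 0.29 to 0.38. Accordingly 1 of the 9 genes passed in each of those tests, and 1 or 2 without 1 liver. G6pc passed with STZ label numbers 29 to 32 only (-0.51). Pck2, near 0, changed sign there (0.051) and ranged from -0.049 to 0.032 without 1 liver. The shift of G6pc minus Slc37a4 did not pass with the replicate block (-0.57, adjusted p = 0.0938) and ranged from -0.65 to -0.35 without 1 liver. Over all genes 1819 passed, and 1088 in the exact rank-sum test. That test uses ranks alone, and at these group sizes it passed only genes with almost no overlap. Pck1, with 1 STZ liver inside the control range, had an adjusted p of 0.0427 in it. A call can therefore be lost there whatever the size of the difference. With the replicate block 1256 passed. The titles' replicate numbers are shared in number only, since deviations of same-numbered livers correlated between -0.09 and 0.19. The block thus uses up degrees of freedom without pairing livers, and control replicate 7 has no STZ partner. A call lost with the block can follow from that loss of precision. Slc16a7, Pklr, Sik1, Srebf1, Acaca, Slc13a3, Apoa1, Lyve1, Cd5l, Cd68, Vsig4, Clec4f and Ptprc lost their calls in the rank-sum test. With the block, Tpi1, Acaca, Apoa1, Ttr, Cps1, Cd5l, Cd68, Vsig4, Clec4f and Ptprc lost theirs. Apoa1, Cd68, Vsig4, Clec4f and Ptprc also lost theirs with STZ label numbers 29 to 32 only, and Ttr with median centring. Commd9 reversed (0.00825 with label numbers 29 to 32, 0.00783 with the block, -0.03 to 0.045 without 1 liver), as did Bysl (-0.067 to 0.019 without 1 liver); neither passed. Irs1 was 0.01 on its dimmest probe set. The arrays carry no detection calls, so low signal is not absence.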

Other observations

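Coefficients of Fbp1 with the genes of glucose-6-phosphate transport and glucose export are given here as values, chosen after they were seen, and none passed after adjustment over 72 coefficients. In controls Fbp1 and Slc2a2 had r = 0.947 (exact p = 0.00119, adjusted p = 0.0857; rho = 0.893, exact p = 0.0123, adjusted p = 0.571; n = 7; r without the 2 livers farthest from the Fbp1 median 0.828). In STZ livers the same genes had r = -0.639 (exact p = 0.150, adjusted p = 0.591; rho = -0.60, exact p = 0.242, adjusted p = 0.725; n = 6), and r was 0.078 without 2 livers, so the negative value rests on those livers. Fbp1 and Slc37a4 had r = 0.821 in controls (exact p = 0.0198, adjusted p = 0.267; rho = 0.679, exact p = 0.110, adjusted p = 0.607; n = 7; r without 2 livers 0.755). In STZ livers they had r = -0.959 (exact p = 0.00833, adjusted p = 0.267; rho = -0.886, exact p = 0.0333, adjusted p = 0.596; n = 6; r without 2 livers -0.769). Whether any coefficient differed between the groups was not tested.

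No value of the 9 genes or of the 4 differences between genes lay far enough from its group to be marked as an outlier by Dixon's test, in 26 sets of values examined. The spread between livers was larger in the STZ group for 7 of the 9 genes, most for Pck2 (SD ratio 3.79), Fbp1 (2.23) and G6pc (2.01), and smaller for Pck1 (0.915) and Mdh1 (0.879). Of all named genes 61.6% also had the larger SD in STZ livers, with a median ratio of 1.17, and the ratios were not tested.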
